A study of Mus musculus with 34 samples.

Results

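The NR4A orphan nuclear receptors and the retinoid X receptors (RXRs) were examined in the dorsal hippocampus after spatial learning. The 6 genes were taken by symbol, *Nr4a1*, *Nr4a2*, *Nr4a3*, *Rxra*, *Rxrb* and *Rxrg*, from the 54532 genes of the bulk RNA sequencing count table, and all 6 were among the 22018 genes with enough counts to test. Bulk RNA was sequenced from the whole dorsal hippocampus of adult male C57BL/6J mice aged 2 to 3 months. The 4 control mice stayed in the homecage and the other 4 were killed 1 h after training in spatial object recognition (SOR), in which a mouse learns where objects stand in an arena. The labels name no allele or drug in either group. Each library is taken as 1 mouse, and p-values measure the spread between these mice.

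NR4A receptors are transcription factors encoded by immediate early genes: neuronal activity switches them on within minutes through cAMP, calcium and the factor CREB, and no classical ligand is known to be needed for their action. They bind DNA as monomers at the NGFI-B response element (NBRE) or as dimers, and NR4A1 and NR4A2, unlike NR4A3, can also pair with an RXR. RXRs bind retinoids and serve as the shared partner of many nuclear receptors, and in the hippocampus both families have been tied to long-term memory.

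The promoter windows of the 3 NR4A genes are shown because these genes were all higher after training, and because the cAMP response element (CRE) bound by CREB is a known feature of their control. Capitals mark the CRE core, TGACG or its reverse complement CGTCA, in the 250 bases before the RefSeq start site (assembly GRCm38.p6, the build of the count table's mm10 genome), written 5′ to 3′ along the gene's strand.

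Nr4a1 chr15:101266596-101266845 (+ strand): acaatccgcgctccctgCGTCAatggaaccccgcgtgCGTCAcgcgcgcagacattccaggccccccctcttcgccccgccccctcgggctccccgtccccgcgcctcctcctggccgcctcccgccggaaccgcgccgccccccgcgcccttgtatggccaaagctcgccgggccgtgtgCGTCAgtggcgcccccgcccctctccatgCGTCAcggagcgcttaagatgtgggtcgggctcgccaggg

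Nr4a2 chr2:57124004-57124253 (- strand): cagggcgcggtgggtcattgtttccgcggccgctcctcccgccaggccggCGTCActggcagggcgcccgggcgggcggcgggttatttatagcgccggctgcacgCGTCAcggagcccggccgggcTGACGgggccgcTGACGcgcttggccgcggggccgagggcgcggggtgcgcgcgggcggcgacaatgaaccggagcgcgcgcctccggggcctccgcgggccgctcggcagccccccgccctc

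Nr4a3 chr4:48045055-48045304 (+ strand): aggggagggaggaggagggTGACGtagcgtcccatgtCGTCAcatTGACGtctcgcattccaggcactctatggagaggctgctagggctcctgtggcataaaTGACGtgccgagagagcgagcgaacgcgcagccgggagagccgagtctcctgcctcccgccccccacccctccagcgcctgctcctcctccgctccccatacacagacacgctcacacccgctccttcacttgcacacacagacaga

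Each of the 3 NR4A windows held 4 CRE cores when 50 bases after the start were searched as well, all of them before the start. Of the 32851 RefSeq promoter windows of that length, searched on both strands, 20.8% held at least 1 core and 0.231% held 4 or more. Counted from the start site, the first base of each core was at -233, -213, -69 and -40 in *Nr4a1*, at -200, -144, -123 and -111 in *Nr4a2*, and at -231, -213, -205 and -147 in *Nr4a3*. The full palindrome TGACGTCA was in none of the 3, and in 1.79% of all windows. G and C made up 72.3%, 81.7% and 64.7% of the 3 windows of 300 bases. The shares over all windows were not matched for G and C content. The GENCODE M21 span of *Nr4a1* starts upstream of its window, and that of *Nr4a3* starts inside its window.

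**Figure D1:**
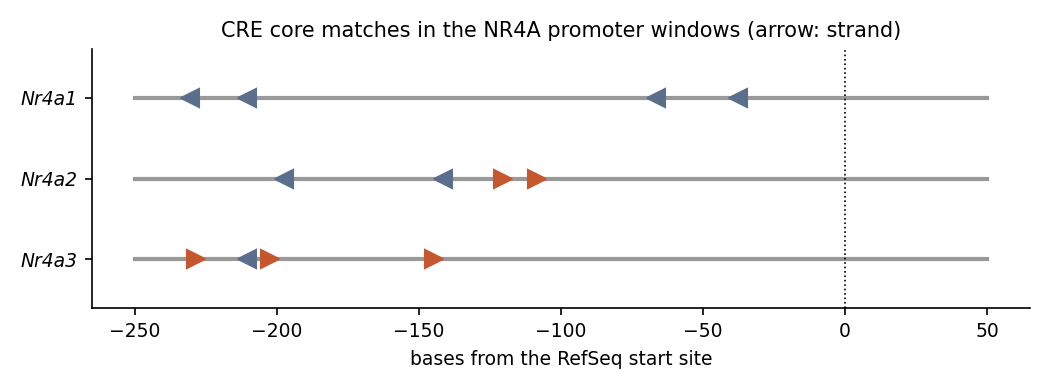
Positions of the CRE core in the *Nr4a1*, *Nr4a2* and *Nr4a3* promoter windows, in bases from the RefSeq start site (dotted line). Right-pointing orange arrows are cores on the gene's strand and left-pointing blue arrows are cores on the other strand; each gene has 4, all before the start.

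Among the 6 RXR windows, 1 of the pair belonging to *Rxrb* held 1 CRE core and the others held none. The NBRE, AAAGGTCA or its reverse complement TGACCTTT, is the element an NR4A monomer binds. It was found once in the downstream *Rxra* window, at -50 from that start, and once in the downstream *Rxrg* window, at -90 from its own start. It was in no NR4A window and in 1.51% of all windows. The stretches that hold it are shown with the NBRE in capitals, and a match is a description of the letters, not a site.

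Rxra chr2:27709226-27709265 (+ strand): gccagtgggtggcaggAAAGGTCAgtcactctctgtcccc

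Rxrg chr1:167618159-167618198 (+ strand): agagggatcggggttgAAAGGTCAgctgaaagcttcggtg

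*Nr4a1* rose 2.17-fold after SOR training, *Nr4a3* rose 1.41-fold and *Nr4a2* rose 1.29-fold, while no RXR gene passed the test. In a whole-tissue sample, more RNA per cell and more cells carrying it cannot be told apart. A gene was called changed when edgeR's quasi-likelihood test, with p-values adjusted by Benjamini-Hochberg across the 22018 genes, fell under 0.05 and the fold change exceeded 1.4, which is 0.49 on the log2 scale. On that rule 2 of the 6 genes were called, *Nr4a1* and *Nr4a3*, both higher after training. Of all genes tested, 0.150% were higher and called. By adjusted p alone the 3 NR4A genes passed, against 0.273% of all genes higher. In the same 3 genes every SOR value stood above every homecage value, which held for 2.99% of all genes.

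**Figure D2:**
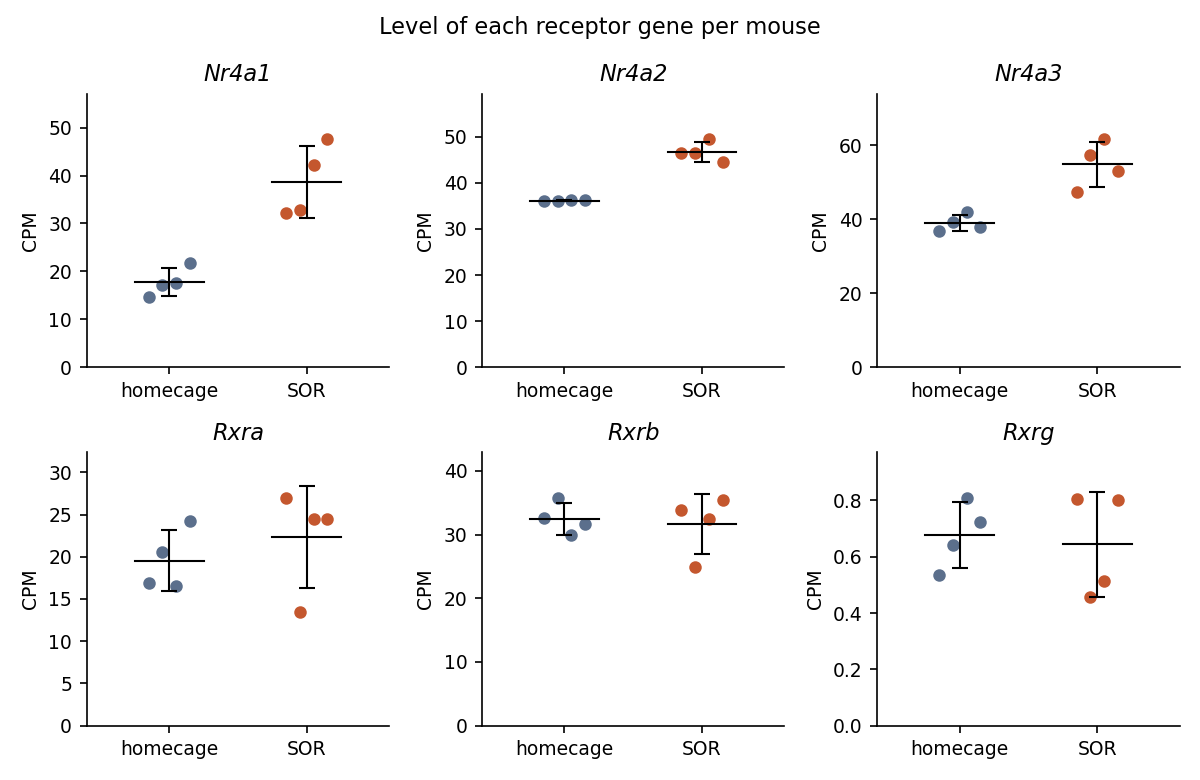
Level of each receptor gene in CPM in the 4 homecage (blue) and 4 SOR (orange) mice, with a separate axis from 0 for each gene. Each point is 1 mouse, the line is the mean and the bars are ± 1 SD; the groups are apart for the 3 NR4A genes and overlap for the 3 RXR genes.

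*Nr4a1* (ENSMUSG00000023034, chr15:101254269-101274795, plus strand, 4 annotated transcripts) encodes Nur77, a rapid activity-induced member of the family. In CPM, counts scaled to library size, its level in the homecage mice was 14.6, 17.2, 17.6 and 21.7, and in the SOR mice it was 32.2, 32.8, 42.3 and 47.6. The lowest SOR mouse was well above the highest homecage mouse. The means were 17.8 ± 2.95 and 38.7 ± 7.51 CPM (SD, n = 4 each). The log2 fold change of *Nr4a1* was 1.12 with a standard error of 0.146, and edgeR's quasi-likelihood test gave an adjusted p = 0.00971 after Benjamini-Hochberg adjustment. The 95% interval of its fold change ran from 1.74 to 2.72. The exact permutation test on the mouse values gave p = 0.0286 (two-sided), the smallest that the 70 assignments of 4 against 4 mice allow. Without homecage replicate 2 the adjusted p of *Nr4a1* was 0.0527, and in the other 7 fits that left out a library it passed.

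*Nr4a2* (ENSMUSG00000026826, chr2:57106830-57124003, minus strand, 6 transcripts) encodes Nurr1, best known for the making and upkeep of dopamine neurons. Its homecage levels were 36.02, 36.11, 36.18 and 36.19 CPM, and its SOR levels were 46.4, 46.4, 49.5 and 44.5 CPM. The 4 homecage mice were almost equal, and each SOR mouse was higher by a margin far wider than the homecage spread. The means were 36.1 ± 0.0784 and 46.7 ± 2.06 CPM (SD, n = 4 each). The log2 fold change was 0.37 with a standard error of 0.0444, and edgeR's quasi-likelihood test gave a Benjamini-Hochberg adjusted p = 0.00553. *Nr4a2* passed the test but, at 1.29-fold, was not called changed. The 95% interval of its fold change in this fit, 1.21 to 1.38, lay under 1.4. With the likelihood ratio test the standard error was larger, 0.0604. The homecage coefficient of variation, 0.217%, ranked 2nd from the smallest of 22018 genes, where the median was 9.22%. Counting reads alone would give a homecage SD of 0.750 CPM at this depth, more than the 0.0784 CPM observed, so the homecage spread of *Nr4a2* is too small to serve as a measure of how these mice differ. *Nr4a2* passed in all 8 fits that left out a library, with adjusted p from 0.0119 to 0.0351.

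*Nr4a3* (ENSMUSG00000028341, chr4:48045153-48086447, plus strand, 4 transcripts) encodes the third receptor of the family. Its homecage levels were 36.8, 39.2, 41.9 and 37.9 CPM, and its SOR levels were 47.5, 57.3, 61.7 and 53.1 CPM. The groups did not overlap, and the lowest SOR mouse, replicate 1, stood closer to the homecage mice than the other SOR mice did. The means were 38.9 ± 2.21 and 54.9 ± 6.02 CPM (SD, n = 4 each). The log2 fold change was 0.50 with a standard error of 0.0769 and a 95% interval of the fold change from 1.25 to 1.59. EdgeR's quasi-likelihood test gave a Benjamini-Hochberg adjusted p = 0.0286, and the fold change of 1.41 was just past 1.4. The adjusted p passed in 2 of the 8 fits that left out a library, at 0.0493 without homecage replicate 3 and 0.00659 without SOR replicate 1. In the other 6 fits it was 0.0955 and 0.0931 without homecage replicates 1 and 2, 0.115 without homecage replicate 4, and 0.0915, 0.0575 and 0.0685 without SOR replicates 2, 3 and 4. For *Nr4a2* and *Nr4a3* the exact permutation test also gave the smallest possible p, 0.0286.

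**Figure D3:**
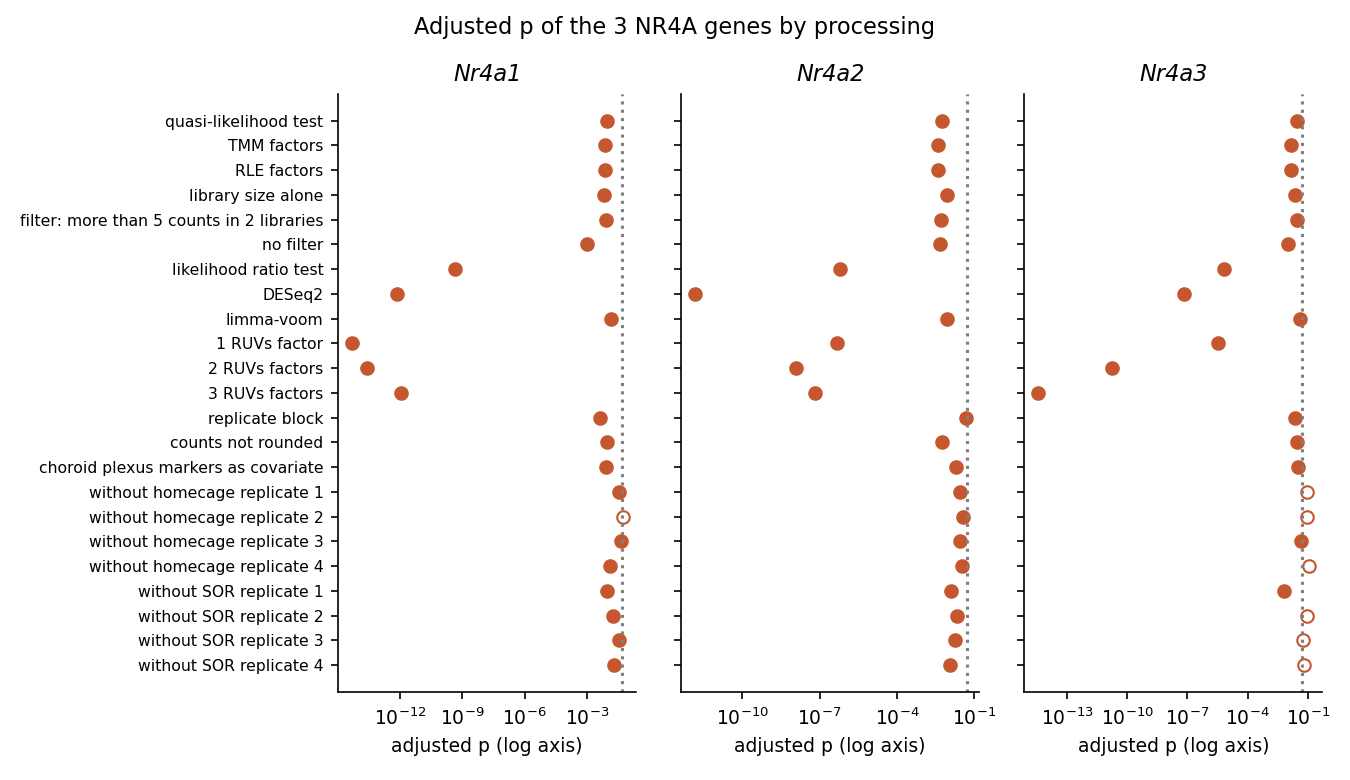
Adjusted p (log axis) of *Nr4a1*, *Nr4a2* and *Nr4a3* under each way of processing the counts, 1 row per fit, with 0.05 as a dotted line, filled points under it and open points above. *Nr4a2* is under the line throughout, *Nr4a1* is above it only without homecage replicate 2, and *Nr4a3* is above it in 6 of the 8 fits without 1 library.

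The makeup of the summed NR4A level was also compared. *Nr4a1* was 24.7 ± 3.03% of the summed NR4A level per kilobase in homecage mice and 34.6 ± 4.36% in SOR mice (SD, n = 4 each), with ranges of 21.7 to 28.9% and 30.8 to 40.6% that did not overlap. The *Nr4a2* share was 43.5 ± 2.01% and then 36.5 ± 3.10%, and that of *Nr4a3* was 31.8 ± 1.65% and then 28.9 ± 2.20%. Taken as a ratio within each library, which does not depend on scaling, the log2 ratio of *Nr4a1* to *Nr4a2* was between -1.30 and -0.74 in homecage mice and between -0.53 and 0.10 in SOR mice. It was higher by 0.75 after training (exact permutation test, two-sided p = 0.0286, and 0.0857 after Benjamini-Hochberg adjustment over the 3 ratios, with SOR above homecage in every mouse). This ratio failed the correction over the 3 ratios. Its unadjusted p was already the smallest that the permutation test allows, so it could pass only if another ratio reached that p too. The log2 ratio of *Nr4a1* to *Nr4a3* was between -1.33 and -0.80 in homecage mice and between -0.81 and -0.16 in SOR mice. The difference was 0.63 (exact permutation p = 0.0571, adjusted 0.0857), and 1 SOR mouse lay just under the highest homecage mouse. The log2 ratio of *Nr4a2* to *Nr4a3* differed by -0.12 (exact permutation p = 0.143, adjusted 0.143), with the groups overlapping.

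**Figure D4:**
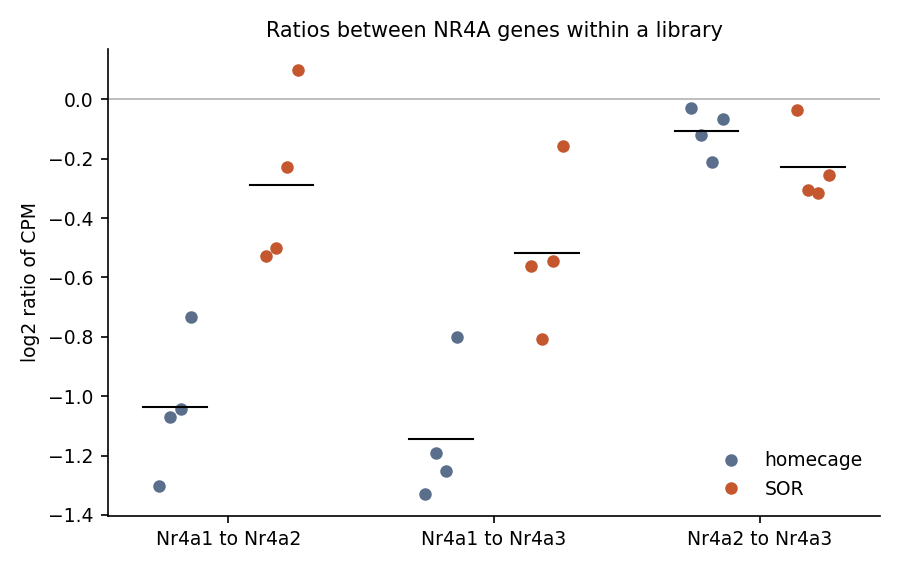
Log2 ratio of CPM between pairs of NR4A genes within each library, in homecage (blue) and SOR (orange) mice; each point is 1 mouse and the line is the group mean. The ratio of *Nr4a1* to *Nr4a2* lies between -1.30 and -0.74 in homecage mice and between -0.53 and 0.10 in SOR mice, and the other ratios overlap.

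The RXR genes gave values on both sides of no change. *Rxra* (ENSMUSG00000015846, chr2:27676440-27762957, plus strand) encodes the RXR best known from liver and skin. It had 16.9, 20.6, 16.5 and 24.2 CPM in homecage mice and 27.0, 13.5, 24.5 and 24.5 CPM in SOR mice. The groups overlapped, and SOR replicate 2 was the lowest of the 8 mice. The means were 19.5 ± 3.60 and 22.4 ± 6.03 CPM (SD, n = 4 each). The fold change of *Rxra* was 1.15 with a 95% interval from 0.848 to 1.55, and edgeR's quasi-likelihood test gave an adjusted p = 0.797 (exact permutation p = 0.571). The log2 fold change was 0.20, and it was 0.38 without SOR replicate 2, with an adjusted p = 0.367. The interval thus holds changes as large as that of *Nr4a3*.

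*Rxrb* (ENSMUSG00000039656, chr17:34031812-34038399, plus strand, 10 transcripts) encodes a receptor found in most tissues. It had 32.6, 35.8, 29.9 and 31.6 CPM in homecage mice and 33.9, 24.9, 32.5 and 35.4 CPM in SOR mice. The groups overlapped, and SOR replicate 2 was again the lowest. The means were 32.5 ± 2.49 and 31.7 ± 4.66 CPM (SD, n = 4 each). The fold change was 0.975 with a 95% interval from 0.834 to 1.14, so a rise of the size seen in *Nr4a2*, 1.29-fold, lay outside it (edgeR's quasi-likelihood test, adjusted p = 0.941, exact permutation p = 0.800). Its log2 fold change, -0.04, changed sign without homecage replicate 2 and without SOR replicate 2, at 0.01 and 0.06.

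*Rxrg* (ENSMUSG00000015843, chr1:167598384-167639623, plus strand) encodes a receptor known mainly from muscle and striatum. It had 0.536, 0.643, 0.810 and 0.722 CPM in homecage mice and 0.806, 0.456, 0.513 and 0.801 CPM in SOR mice, from 25.3 to 59.9 estimated counts a library. *Rxrg* was the lowest of the 6 genes in every mouse, and SOR replicate 2 was again the lowest SOR mouse. The means were 0.678 ± 0.117 and 0.644 ± 0.186 CPM (SD, n = 4 each). The fold change was 0.944 with a 95% interval from 0.649 to 1.37 (edgeR's quasi-likelihood test, adjusted p = 0.946, exact permutation p = 0.686). Its log2 fold change, -0.08, was 0.00 without homecage replicate 3, 0.05 without SOR replicate 2 and 0.02 without SOR replicate 3. At these counts a change of this size was not detectable.

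Compared per kilobase of exon, *Nr4a2* was the highest of the 6 in homecage mice, at 8.90 ± 0.0193 CPM per kb. *Rxrb* followed at 8.18 ± 0.626, *Nr4a3* at 6.50 ± 0.369, *Nr4a1* at 5.07 ± 0.839, *Rxra* at 3.58 ± 0.659 and *Rxrg* at 0.295 ± 0.0507 CPM per kb (SD, n = 4 each). The mice overlapped between *Nr4a2* and *Rxrb*, between *Nr4a3* and *Nr4a1* and between *Nr4a1* and *Rxra*. They were apart between *Rxrb* and *Nr4a3* and between *Rxra* and *Rxrg*. In SOR mice the order was *Nr4a2* at 11.5 ± 0.508, *Nr4a1* at 11.0 ± 2.14, *Nr4a3* at 9.17 ± 1.01, *Rxrb* at 7.97 ± 1.17, *Rxra* at 4.10 ± 1.10 and *Rxrg* at 0.280 ± 0.0809 CPM per kb. Each gene overlapped the next in that order down to *Rxrb*, and *Rxra* and *Rxrg* were apart from the gene above them. By the longest transcript instead of all exons, *Rxrb* led in homecage mice at 12.4 CPM per kb, *Nr4a2* had 10.1, and *Nr4a1* at 6.96 stood above *Nr4a3* at 6.81. In SOR mice that length put *Nr4a1* first at 15.2 ± 2.94, *Nr4a2* at 13.1 ± 0.578, *Rxrb* at 12.1 ± 1.77 and *Nr4a3* at 9.60 ± 1.05 CPM per kb.

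Genes whose profile over the 8 libraries was most like each NR4A gene were listed by the root mean square difference of centred log2(CPM + 0.5), among the 16352 tested genes that averaged 1 CPM or more. Nearest to *Nr4a1* were *Dusp5*, a phosphatase of ERK kinases, at 0.187, *Egr4*, a zinc finger factor, at 0.188 and *Junb*, an AP-1 subunit, at 0.220. *Dusp5* went from 8.79 ± 0.837 to 16.8 ± 0.926 CPM (log2 fold change 0.93, edgeR's quasi-likelihood test, adjusted p = 0.00105). *Egr4* and *Junb* had log2 fold changes of 1.17 and 0.75, with adjusted p = 0.0212 and 0.00389 in the same test. A gene picked for its likeness to one that differs between the groups has to differ in the same way, so the fold changes and p-values of these genes are descriptions and support nothing. Nearest to *Nr4a2* were *Mcl1*, an anti-apoptotic BCL2 relative, at 0.0548, *Arl5b*, a small GTPase, at 0.0554 and *Snx17*, a sorting nexin of endosomes, at 0.0583. *Snx17* went from 35.2 ± 0.292 to 47.2 ± 0.836 CPM, and the log2 fold changes of *Mcl1*, *Arl5b* and *Snx17* were 0.30, 0.40 and 0.42 (edgeR's quasi-likelihood test, adjusted p = 0.00627, 0.00613 and 0.00105). Nearest to *Nr4a3* were *Gm43188*, a predicted gene, at 0.0915, *Sertad1*, a transcriptional coregulator, at 0.0967 and *Acrbp*, an acrosin-binding protein gene, at 0.101. The adjusted p of these 3 was not under 0.05 (log2 fold changes 0.46, 0.44 and 0.40, edgeR's quasi-likelihood test, adjusted p = 0.176, 0.0984 and 0.321). Within the family, *Nr4a2* and *Nr4a3* differed by 0.111, which placed *Nr4a2* 9th among the genes most like *Nr4a3* and *Nr4a3* 161st among those most like *Nr4a2*. *Nr4a1* differed from *Nr4a3* by 0.373 and from *Nr4a2* by 0.428. Among the genes most like *Nr4a1* these ranked 48th and 123rd, and from the side of *Nr4a3* and *Nr4a2*, *Nr4a1* ranked 14133rd and 15819th.

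None of the 6 lists of genes tied to these receptors held a gene that passed edgeR's quasi-likelihood test at an adjusted p under 0.05, which 68 of all 22018 genes passed. At so small a share, lists of this size would seldom hold such a gene, so its absence says little about them. The likelihood ratio test without factors passed 2 chaperone genes (share of all genes not counted). With RUVs factors for unwanted variation, which the study's methods name, the likelihood ratio test passed up to 11 chaperone genes, 1 coregulator and 1 gene of retinoid supply. The chaperones and the coregulator were higher, where at most 1.37% of all genes were higher and passed. The retinoid gene was lower, and the share of all genes that were lower and passed was not counted. At an unadjusted p under 0.05 there were 2 of 12 receptors that pair with RXR, 1 of 16 coregulators, 1 of 14 genes of retinoid supply, 4 of 16 CREB, MEF2 and SRF regulators, 9 of 13 endoplasmic reticulum chaperone genes and 1 of 5 dopamine neuron genes, against 10.1% of all genes tested. Those of the partner receptors, regulators and chaperones were higher after training, against 4.54% of all genes, and the others were lower, against 5.51%. Over all genes tested, the median log2 fold change was -0.02 and 43.8% of genes were above 0. The RXR partner receptors, such as the retinoid, thyroid hormone and PPAR receptors, centred on 0.08 (median log2 fold change), 10 of 12 lying above 0 (*Vdr* and *Nr1i2* were too low to test). *Ppara*, a fatty acid sensor, had the largest, 0.42, from 1.90 ± 0.367 to 2.53 ± 0.313 CPM (adjusted p = 0.423), and *Rarg*, a retinoic acid receptor, had 0.27 (adjusted p = 0.610). The coregulators had a median of 0.04 with 14 of 16 above 0, and of 0.06 without SOR replicate 1. *Kat2b*, a histone acetyltransferase, had the largest, 0.22 (adjusted p = 0.670).

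The genes that make, carry and clear retinoids centred on 0.09 (median log2 fold change) over 14 tested, and on 0.01 without SOR replicate 1, with *Bco1*, *Cyp26a1* and *Cyp26c1* too low to test. *Lrat*, which stores retinol as esters, had -0.49 at a homecage mean of 0.231 CPM (adjusted p = 0.728), and *Crabp1*, a retinoic acid carrier, had 0.32 (adjusted p = 0.692). The CREB, MEF2 and SRF regulators, which act on NR4A promoters, had a median of -0.02 with 7 of 16 above 0, and of 0.03 without SOR replicate 1. *Crem*, a CREB relative with an inducible repressor form, went from 7.71 to 9.48 CPM in homecage mice to 9.64 to 12.9 CPM in SOR mice, without overlap (log2 fold change 0.32, adjusted p = 0.338). *Crtc2*, a CREB coactivator, had 0.30 (adjusted p = 0.350), with 1 SOR mouse under the highest homecage mouse. The dopamine neuron genes, tied to NR4A2 in the midbrain though not all as its targets, had a median of -0.07 over the 5 tested. The median was -0.01 without SOR replicate 1, and *Slc6a3*, *Pitx3* and *En1* were too low to test. *Ddc*, which makes dopamine and serotonin from their precursors, had 5.55 to 6.25 CPM in homecage mice and 3.41 to 4.94 CPM in SOR mice (log2 fold change -0.39, adjusted p = 0.324), and *Ret* had -0.13 (adjusted p = 0.865).

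The 13 endoplasmic reticulum chaperone genes, a group that has been linked to NR4A factors in the hippocampus, centred on 0.41 (median log2 fold change), and all 13 were above 0. The study named several of these genes from the same mice, so the list is not independent evidence of its direction. *Manf*, a secreted stress-induced factor of the endoplasmic reticulum, had 34.3, 31.6, 29.1 and 27.8 CPM in homecage mice and 76.8, 40.8, 37.1 and 41.9 CPM in SOR mice (log2 fold change 0.68, adjusted p = 0.268). *Sdf2l1*, a chaperone complex subunit, had 8.67, 6.48, 6.07 and 5.97 CPM in homecage mice and 16.3, 8.88, 8.30 and 9.33 CPM in SOR mice (log2 fold change 0.66, adjusted p = 0.328). In each of the 13 genes SOR replicate 1 was the highest SOR mouse and homecage replicate 1 the highest homecage mouse. Without SOR replicate 1 the median of the list was 0.24. With 1, 2 and 3 RUVs factors, 5, 11 and 11 of the 13 passed an adjusted p under 0.05 in a likelihood ratio test, all higher, where 0.904%, 1.37% and 1.32% of all genes were higher and passed. The library of SOR replicate 1 also held the most choroid plexus marker RNA, and that of homecage replicate 1 the most among homecage mice. With these markers as a covariate, 0 of the 13 passed an adjusted p under 0.05, as without it. What the marker RNA has to do with the chaperone values was not tested.

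**Figure D5:**
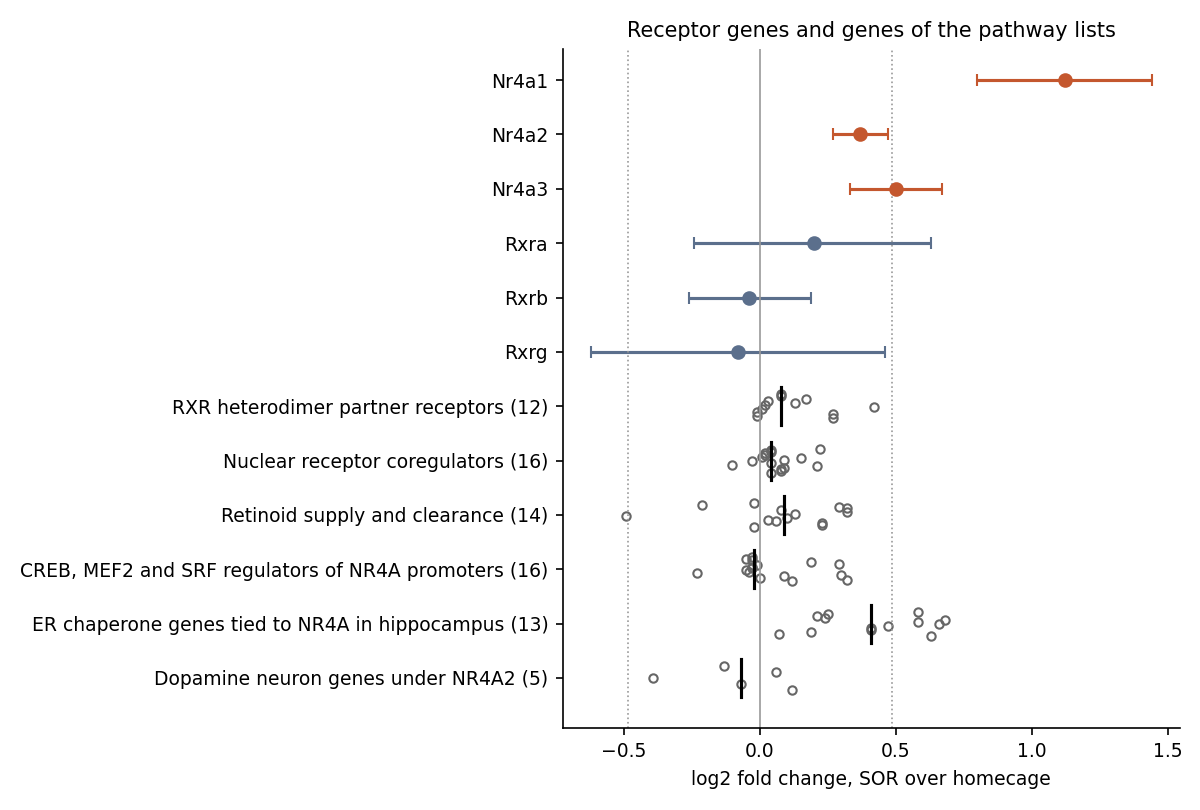
Log2 fold change, SOR over homecage, of the 6 receptor genes with 95% confidence intervals (orange for NR4A, blue for RXR) and of each tested gene in the 6 lists (open circles, black line at the list median). The solid line is no change and the dotted lines mark a fold change of 1.4; *Nr4a1* lies wholly beyond it and the RXR intervals span 0.

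Library totals ran from 51406011 to 81525977 estimated counts, and the 6 neuron markers summed to 4079 to 4654 CPM in homecage and 4217 to 4686 CPM in SOR mice. No gene of the 14 marker lists passed the adjusted test, which 68 of all 22018 genes passed, so this does not show that the makeup was equal. The 6 CA1 pyramidal neuron markers summed to 360 to 401 CPM in homecage and 391 to 421 CPM in SOR mice, and *Gpr161*, 1 of them, had a log2 fold change of 0.30 (edgeR's quasi-likelihood test, adjusted p = 0.0779). Without *Gpr161* the other 5 summed to 257 to 292 and 260 to 293 CPM. Divided by the sum of all 6, the NR4A values did not overlap between the groups, with log2 differences of 1.0 for *Nr4a1*, 0.25 for *Nr4a2* and 0.37 for *Nr4a3*. The 6 choroid plexus markers, all detected in every mouse, summed to 25.6 to 1094 CPM in homecage and 42.1 to 3995 CPM in SOR mice. With the log2 of that sum as a covariate, the log2 fold changes of the 3 NR4A genes were 1.17, 0.36 and 0.52, and all passed.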

How the data were processed

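Bulk RNA sequencing of the dorsal hippocampus of 8 mice was analysed, 4 homecage and 4 SOR; the other assays of the series were not analysed here. Per the study's methods, libraries were made from total RNA with ribosomal depletion, although the labels name polyA RNA, and reads were aligned with STAR, to mm10 per the labels, and counted per gene with featureCounts in the bcbio pipeline. The deposited values are estimated counts per gene from tximport, not normalized. Of the values 52.6% are not whole, which plain read counting would not give, and how tximport and featureCounts relate here is not given in the sources used here.

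Estimated counts were rounded and tested with edgeR 4.0.16 (R 4.3.3) by its quasi-likelihood test, after filterByExpr, with upper-quartile factors and Benjamini-Hochberg adjustment. CPM used the same factors. Calls took an adjusted p below 0.05 together with a fold change over 1.4. The exact permutation tests used all 70 assignments, on log2(CPM + 0.5) for single genes and on the log2 ratio of CPM, without the 0.5, for the 3 ratios. The study's methods also name RUVs without its number of factors, so 1, 2 and 3 factors were alternatives, each with the likelihood ratio test. Other alternatives were TMM, RLE and no factors, other filters, a likelihood ratio test, DESeq2 1.42.0, limma-voom 3.58.1, a replicate block and each library left out. The scripts were tested on simulated data. Symbols and spans came from GENCODE M21, which matched 54495 of 54532 genes, and promoters from RefSeq, which matched all 6 genes. No annotated gene overlapped a member. No replicate pair differed by less than sampling noise.

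The 6 genes and the lists were chosen with earlier results of these data known. Named were the 6 members, the 2 genes of each list with the largest absolute log2 fold change and any that passed, and the 3 genes most like each NR4A gene; *Gpr161* was named after its values were seen. A gene that this rule names is not reported here.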

Additional observations from a re-analysis of the deposited data

Results flagged for a closer look

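In 54 groups of 4 mice, over 27 named genes, 2 held a mouse whose gap to its nearest neighbour was wide for the range of its group; chance gives such a gap in about 1 in 20 groups. *Manf* was 76.8 CPM in SOR replicate 1, where the other SOR mice had 37.1 to 41.9 CPM. *Sdf2l1* was 16.3 CPM in SOR replicate 1, where the others had 8.30 to 9.33 CPM. No member of the NR4A or RXR families had such a mouse. Only named genes were checked. In each of the 13 chaperone genes SOR replicate 1 was the highest SOR mouse, so the values of *Manf* and *Sdf2l1* are not separate events.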

How the results depend on the processing

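The 3 NR4A genes kept their direction in every alternative run. Apart from leaving out libraries, their adjusted p stayed under 0.05 in all 14 alternatives, with log2 fold changes of 1.09 to 1.17 for *Nr4a1*, 0.36 to 0.39 for *Nr4a2* and 0.49 to 0.52 for *Nr4a3*. With 1 library left out they ran from 1.0 to 1.23, 0.34 to 0.39 and 0.43 to 0.56, with the lost calls of *Nr4a1* (highest adjusted p 0.0527) and *Nr4a3* (0.115) as given above. *Rxrb* ran from -0.10 to 0.06 and *Rxrg* from -0.22 to 0.05 with 1 library left out, both crossing 0, and *Rxra* from 0.09 to 0.38. The count of called genes, 38 (33 higher, 5 lower), was 105 with the likelihood ratio test (69 higher, 36 lower), 112 with DESeq2 (84 and 28), 134, 191 and 203 with 1, 2 and 3 RUVs factors (83 and 51, 104 and 87, 105 and 98), and 68 by adjusted p alone; the cause was not tested. It ran from 22 to 38 with 1 library left out, 22 without homecage replicate 2 and 25 without homecage replicate 4. Without homecage replicate 3 it was 33, and without SOR replicate 1 it was 38, as in the full fit. Why it moved was not tested. With 3 RUVs factors, 11 of 13 chaperone genes passed the adjusted p alone, where 1.32% of all genes were higher and passed. The likelihood ratio test and the replicate block each passed 2 chaperone genes, DESeq2 passed 3 and 1 regulator, and the fit without SOR replicate 1 passed 1 coregulator. The share of all genes that passed by adjusted p alone in these fits was not counted, so these counts are descriptions only. Levels per kilobase moved with the longest transcript as length to 6.96 for *Nr4a1*, 10.1 for *Nr4a2* and 12.4 for *Rxrb*.

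With a replicate block, 30 genes were called and the NR4A log2 fold changes were 1.12, 0.37 and 0.49 (edgeR's quasi-likelihood test, adjusted p = 0.00424, 0.0467 and 0.0235). The standard error went from 0.146 to 0.0687 for *Nr4a1* and from 0.0769 to 0.0503 for *Nr4a3*. For *Nr4a2* it went from 0.0444 to 0.0483. Taken over all genes, same-numbered mice did not deviate together (correlations -0.0989 to 0.151, against -0.307 to 0.234 for others). Such a correlation cannot exclude pairing, and the samples were treated as unpaired. The choroid plexus covariate, chosen after seeing the data, gave 34 calls. *Rxrg*, at 25.3 to 59.9 counts a library, is where depth limits most.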
